A study of Arabidopsis thaliana with 34 samples.

Results

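The 125 genes described here stood lower in F1 hybrids than in the mean of their parents in each of 3 hybrid families of Arabidopsis thaliana. They were selected on 18 libraries lettered A and B, in which every genotype had 1 library per letter. A gene was kept when its mean over those libraries was at least 2 CPM (counts scaled to library size with edgeR's TMM factors) and when, in each family and in each letter separately, the mean of the 2 reciprocal hybrids was at most 0.8 times the arithmetic mean of the 2 parents. Of 33321 loci counted, 20710 reached 2 CPM, and 125 of these met the rule in all 6 combinations of family and letter. Each parent library enters 2 of the 3 families, so the 6 combinations are not independent of each other. Of the 125, 120 are annotated as protein-coding and 4 as pseudogenes, and 1 (AT1G73602) has no entry in the annotation used.

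Messenger RNA was measured in the whole aerial parts of seedlings 15 days old, each sample being a pool of 5 to 15 seedlings grown on agar. The hybrids were the first-generation offspring of pairs of inbred accessions, C24xLer and LerxC24, C24xCol and ColxC24, and ColxLer and LerxCol. Their parents were the accessions C24, Ler (Landsberg erecta) and Col (Columbia), with no transgene, mutation or treatment named in the labels. The labels do not say which name in a cross is the mother, and they do not say what a letter stands for.

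A further 12 libraries of the C24/Ler family had no part in the selection and are called the check libraries. They comprise C24xLer lettered D and E, 2 libraries of LerxC24 named U1 and U2 here, and C24 and Ler lettered D to G. The count headers of U1 and U2 give the letters D and E, while the titles of these LerxC24 samples give F and G. That conflict was not resolved. Total counts were 36324848 to 88686247 in these libraries and in those lettered A and B. The 4 libraries lettered C held 13198638 to 20435372 counts and entered 1 alternative fit only. In Ler D and Ler E, 15 genes that are near 0 in other Ler libraries stood at 49.1% and 44.1% of their level in C24 and Col, against no more than 0.684% in Ler A, B, C, F and G. Counts of members in the check libraries are therefore given with and without Ler D and Ler E, and values of single genes include these libraries unless stated. Leaving them out moved the ratio of hybrids to parents by over 1.2 times for 14 members, at most 1.34 times. Summed over 4 leaf markers, the libraries lettered A and B held 23700 to 34800 CPM in hybrids and 25400 to 31100 CPM in parents. In the same libraries, 4 root hair markers summed to 10.3 to 13.9 CPM in hybrids and 8.38 to 12.3 CPM in parents. In bulk tissue, fewer cells of a type and less RNA per cell cannot be told apart.

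Several of the 125 genes belong to sulphur metabolism. Plants reduce sulphate to sulphide by way of adenosine 5'-phosphosulphate, and when sulphate runs short they raise the reductase APR1 and small proteins of the LSU and SDI families. In Brassicaceae much organic sulphur is held in glucosinolates, defence compounds that Arabidopsis makes largely from methionine, and SDI1 is known to hold back their synthesis when sulphur is scarce. Other members belong to phosphate starvation, in which acid phosphatases and phosphodiesterases release phosphate and the SPX proteins restrain the response.

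The promoter of SRG3, a glycerophosphodiester phosphodiesterase of the phosphate response, is shown because it holds a pair of P1BS sites. P1BS (GNATATNC) is the element that the phosphate regulator PHR1 is known to bind. The window covers the 300 bases before the annotated start in the TAIR10.1 genome from RefSeq, chr3:350011-350310 on the minus strand, with the P1BS matches in capitals.
SRG3: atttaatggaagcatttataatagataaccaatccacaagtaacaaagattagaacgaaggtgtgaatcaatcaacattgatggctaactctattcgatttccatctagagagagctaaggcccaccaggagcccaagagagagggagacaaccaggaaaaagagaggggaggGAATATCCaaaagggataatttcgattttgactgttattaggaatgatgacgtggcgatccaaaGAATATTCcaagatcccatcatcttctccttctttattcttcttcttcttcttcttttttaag
The matches start 127 and 63 bases before the gene. P1BS is its own reverse complement, so a match counts on both strands. A match was found in the windows of 9 of the 120 protein-coding members (7.5%) and of 1785 of 27443 protein-coding genes (6.5%), and it is a description of these letters only.

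By the rule, all 125 genes stood at 0.8 or less in every family and letter. The median ratio of hybrids to parents was 0.674 in letter B and 0.613 in letter A of C24/Ler. It was 0.629 in letter B and 0.613 in letter A of C24/Col, and 0.631 in letter B and 0.572 in letter A of Col/Ler. Over all genes of at least 2 CPM these medians lay between 0.992 and 1. The share of those genes at or under 0.8 was 4.89% to 10.1% per family and letter. Averaged over the 6 combinations, the members' ratios ran from 0.163 (NIT2) to 0.754 (SPDS3), with a median of 0.617. Being under the mean of the parents does not place a gene under both of them. In 24 members the hybrids lay below both parents in both letters of all 3 families, in 38 members of 2 families, in 45 of 1 family, and in 18 of no family. These counts come from the libraries that chose the members, which favours them. They have no share over all genes beside them and are a description only. Among the accessions, Ler had the highest mean of letters A and B for 72 members, C24 for 47 and Col for 6, and Col had the lowest for 82. Just inside the limit were UGT74C1, AT1G54575 and FUT4, whose highest ratios were 0.7991, 0.7993 and 0.7996. Just outside it were MT1C, SADHU3-1 and FMOGS-OX3 at 0.8003, 0.8008 and 0.8009.

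**Figure D1:**
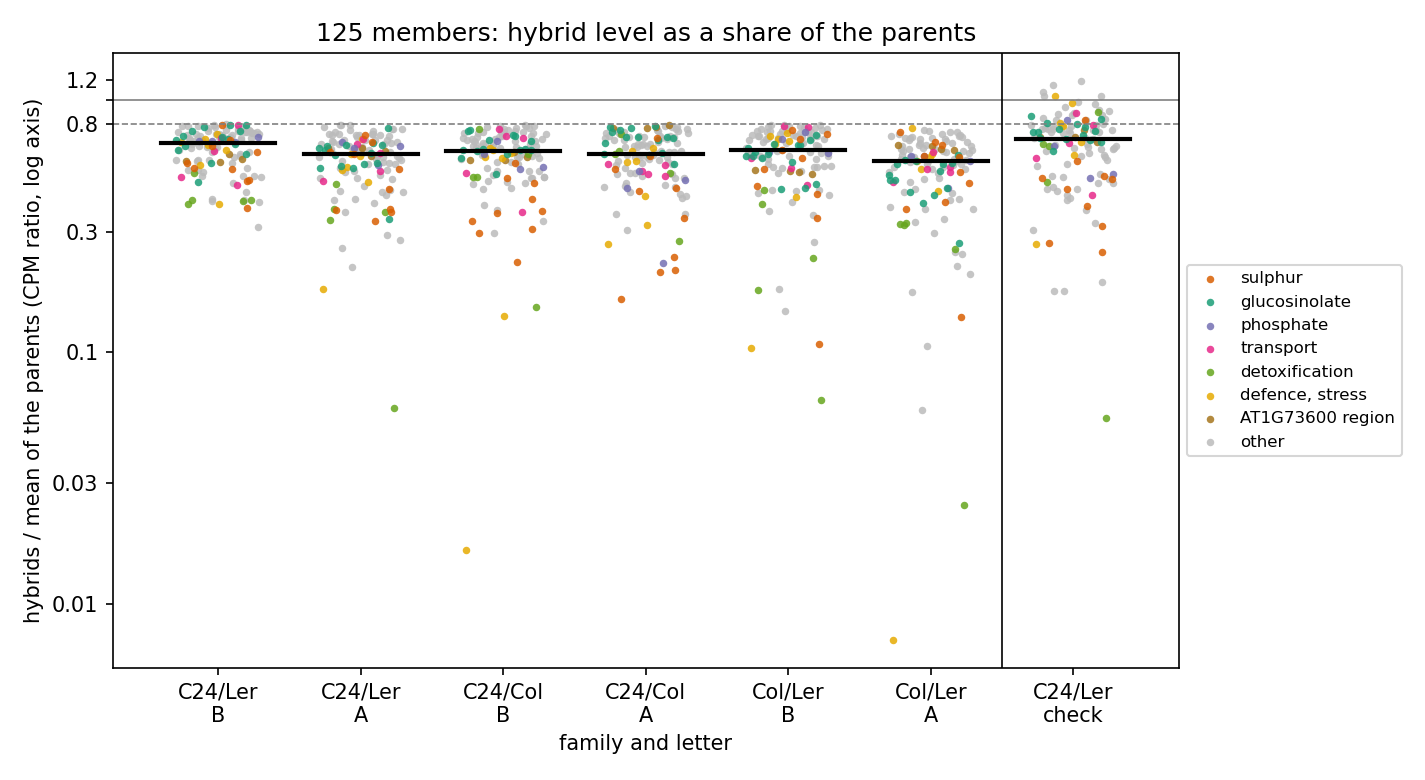
Ratio of the hybrids' mean CPM to the mean of their parents (log axis) for the 125 members, by family and letter and, right of the vertical line, in the C24/Ler check libraries. Each point is 1 gene coloured by role, black bars are medians, the dashed line is 0.8 and the solid line 1. Points left of the vertical line are at or under 0.8 by selection. In the check libraries 94 of 125 are at or under 0.8.

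Fitted on letters A and B with edgeR's quasi-likelihood test (adjusted p below 0.05), 12 members were called lower and 1 higher in C24/Ler, 8 lower and 1 higher in C24/Col, and 17 lower and none higher in Col/Ler. Because this contrast chose the members, these counts are a description and nothing is read from them. Of all 29777 genes tested, 0.208% were called lower and 0.816% higher in C24/Ler, 0.228% lower and 1.01% higher in C24/Col, and 0.262% lower and 0.86% higher in Col/Ler. The fit sets hybrids against the log mid-parent, the mean of the 2 parents' log2 levels, so a member can be called higher when 1 parent hardly expresses it, as with AOP2 below. With the letter as a block, a fit added after seeing the data, edgeR called 88 members lower and 1 higher in C24/Ler, 92 lower and 1 higher in C24/Col, and 96 lower and none higher in Col/Ler. That fit called 1.79% of all genes lower and 2.44% higher in C24/Ler, 3.24% lower and 4.19% higher in C24/Col, and 1.82% lower and 2.41% higher in Col/Ler. The member called higher was AOP2 in both families. This fit uses the same contrast and libraries that chose the members, so its member counts are likewise a description only. The p-values here and below measure the spread between these pools of seedlings.

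Measured again in the check libraries, the members stood below their parents in most cases. The mean of the 4 hybrid libraries was below the mean of the parents for 119 of 125 members and at or under 0.8 of it for 94 (75.2%), against 5.46% of the 21128 genes of at least 2 CPM. The median ratio was 0.702 over the members and 0.999 over those genes. With Ler D and Ler E left out, 118 members were below the parents' mean and 87 (69.6%) at or under 0.8 of it, against 5.26% of genes, and the members' median ratio was 0.716. Within letter D, C24xLer stood at or under 0.8 times the mean of C24 and Ler for 86 members, against 8.77% of genes, and within letter E for 77 members, against 7.5% of genes. Ler D or Ler E is the only Ler library in each of these 2 counts, which therefore rest on them. All 4 hybrid libraries were below all 8 parent libraries for 8 members, against 0.341% of genes (72 of 21128). These 8 were LSU3, ChlAKR, PGL5, AT1G12030, AT2G41380, AT3G26440, AT4G23680 and AT4G24130. Against the 6 parent libraries other than Ler D and Ler E the count was 10. The share of all genes is not given for that count, so nothing is read from it.

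Gene by gene, few of these differences passed the test over all genes. On the log2 scale the members' median change in hybrids against the log mid-parent was -0.51 (middle 50% of members -0.96 to -0.31), against -0.01 for the 29851 genes tested. Its sign was negative for 117 of 125 members and for 51.9% of genes. At an adjusted p below 0.05 edgeR called 3 members lower and none higher, against 0.0502% of all genes called lower and 0.238% called higher. At an unadjusted p below 0.05, 60 members and 3.5% of genes were lower. DESeq2 on the same counts called 29 members lower, among 169 genes, and 1 higher. With the letter as a block, edgeR called 1 member lower, none of the 3 above, against 0.0302% of genes lower and 0.158% higher. LerxC24 was left out of that fit because its letters are in conflict. On the same libraries without the block, edgeR called none of the members. Leaving out Ler D and Ler E together gave 4 members lower and 1 higher, against 0.0981% of genes lower (29) and 0.464% higher (137).

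**Figure D2:**
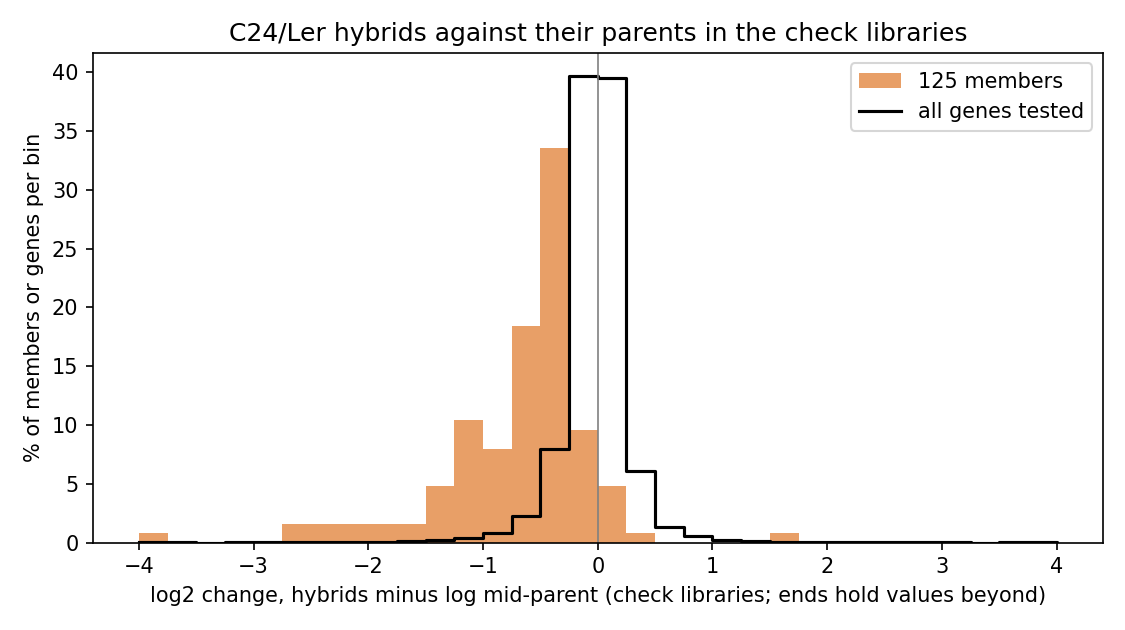
Share of the 125 members (bars) and of the 29851 genes tested (line) in bins of log2 change, C24/Ler hybrids minus the log-scale mean of C24 and Ler, in the 12 check libraries. The members' median is -0.51 and that of all genes -0.01.

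AT4G23680, annotated as a lipid transport superfamily protein, changed with the lowest adjusted p of the members. It had 26.5, 18.8, 22.5 and 18.5 CPM in C24xLer D, C24xLer E, LerxC24 U1 and LerxC24 U2, against 77, 40.2, 60.8 and 75.6 CPM in C24 D to G and 39.3, 45.1, 36.6 and 57.7 CPM in Ler D to G. Every hybrid library lay below every parent library. It fell by 1.30 ± 0.20 on the log2 scale (SE, edgeR adjusted p = 0.0193). ChlAKR, a chloroplast aldo-keto reductase that detoxifies reactive carbonyls, had 3.22, 3.83, 3.42 and 2.07 CPM in the hybrids, against 5.98, 5.44, 7.05 and 5.4 CPM in C24 and 7.41, 7.62, 5.09 and 8.99 CPM in Ler. Its groups did not overlap either, and it fell by 1.08 ± 0.18 (edgeR adjusted p = 0.036). AT4G24130, of unknown function, had 2.43 to 3.51 CPM in the hybrids and 4 to 6.26 CPM in the parents, and fell by 0.76 ± 0.14 (edgeR adjusted p = 0.0489). With the letter as a block and LerxC24 left out, these changes were -1.14, -0.90 and -0.48. None was called there (edgeR adjusted p = 0.172, 0.327 and 0.413), nor on the same libraries without the block (0.364, 0.443 and 0.994). ChlAKR was not called without Ler D and Ler E (0.0793), nor AT4G24130 with RLE size factors (0.0521). Each call was also lost when some single libraries were left out. The call of AT4G23680 was lost without C24xLer D (edgeR adjusted p = 0.0535), C24xLer E (0.167), LerxC24 U1 (0.0971) or LerxC24 U2 (0.0787). That of ChlAKR was lost without any 1 of 10 libraries (edgeR adjusted p = 0.0615 to 0.228), the exceptions being Ler F and LerxC24 U1, and that of AT4G24130 without any 1 of 11 (0.0545 to 0.283), the exception being Ler D. No member was called without C24xLer D, C24xLer E or LerxC24 U2, and 1 was called without C24 G, Ler E or Ler G.

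Of 7 role groups, placed by hand after the members were known, that of sulphur deficiency and sulphate assimilation had the most negative median change in the check libraries. It has 10 members: SDI1, SDI2 (AT1G04770), LSU1, LSU2, LSU3, BGLU28, SHM7, APR1, APS3 and SERAT3;2. Their median ratio was 0.549 in letter B and 0.487 in letter A of C24/Ler, 0.36 in letter B and 0.388 in letter A of C24/Col, and 0.561 in letter B and 0.556 in letter A of Col/Ler. In 5 of the 10, hybrids were below both parents in both letters of all 3 families, a description of the libraries that chose them. All 10 had a negative log2 change in the check libraries, with a median of -1.36 and a range of -2.71 to -0.36, and 9 were at or under 0.8 times the parents, but none passed the adjusted threshold. Without Ler D and Ler E the median was -1.23 and again 9 were at or under 0.8.

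SDI1, the sulphur deficiency protein that restrains glucosinolate synthesis, stood lowest relative to its parents in the C24/Col family. In letter B it had 3.28 and 3.11 CPM in C24xCol and ColxC24, against 10.8 CPM in C24 and 9.93 CPM in Col, and in letter A 5.05 and 7.8 CPM, against 32.9 CPM in C24 and 28.1 CPM in Col. In Col/Ler it had 7.58 and 10.4 CPM in ColxLer and LerxCol of letter B, against 9.93 CPM in Col and 43.1 CPM in Ler. In those libraries 1 hybrid was below both parents and the other was between them. In C24/Ler of letter A it had 14.2 and 24.1 CPM in C24xLer and LerxC24, against 32.9 CPM in C24 and 71.2 CPM in Ler. Among the check libraries it had 8.51 and 14 CPM in C24xLer and 1.31 and 1.32 CPM in LerxC24, against 16.6, 65.6, 6.5 and 4.95 CPM in C24 D to G and 27.5, 24.5, 16.2 and 39.7 CPM in Ler D to G. The LerxC24 libraries were below all parents, while the C24xLer libraries were above C24 F and C24 G. The log2 change was -2.71 ± 0.69 (SE; edgeR adjusted p = 0.248).

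The LSU genes encode small coiled-coil proteins induced by low sulphur. LSU3 had 2.22 and 2.34 CPM in C24xLer and 1.59 and 0.989 CPM in LerxC24, against 4.53, 10.9, 3.49 and 3.25 CPM in C24 D to G and 7.35, 5.04, 5.28 and 12.7 CPM in Ler D to G. All hybrids were below all parents, with a log2 change of -1.91 ± 0.40 (edgeR adjusted p = 0.116). LSU2 had 7.46 and 8.91 CPM in C24xLer and 0.882 and 0.542 CPM in LerxC24, against 2.92 to 24.3 CPM in C24 and 5.59 to 18.4 CPM in Ler. Its LerxC24 libraries were below every parent and its C24xLer libraries lay among them. LSU1 and LSU3 are neighbours on chromosome 3, and their counts are uncertain where reads match more than 1 of these similar genes.

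APR1, the reductase that commits sulphate to reduction, had 15.7 and 14 CPM in C24xCol and ColxC24 of letter B, against 30.8 CPM in C24 and 52.5 CPM in Col, and 59.4 and 61.6 CPM in letter A, against 118 CPM in C24 and 160 CPM in Col. Outside the selection it had 39.7 and 63.3 CPM in C24xLer and 17.9 and 12.8 CPM in LerxC24, against 51.1, 168, 40.3 and 57.2 CPM in C24 D to G and 76.1, 82.3, 56.3 and 70.5 CPM in Ler D to G. The groups overlapped through C24xLer E, and the log2 change was -1.42 ± 0.36 (edgeR adjusted p = 0.26). Without C24 E, whose value stands far above the other C24 libraries, it was -1.08 with an adjusted p of 0.0474. No other library, when left out, brought APR1 under the threshold. BGLU28, a beta-glucosidase that releases sulphur from glucosinolates, had its highest level in Ler, at 76.9 CPM in letter B and 69.1 CPM in letter A. Its hybrids with Ler stood at 3.17 to 20.4 CPM over both letters. APS3, an ATP sulphurylase, differed least in the group, with a check ratio of 0.832.

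Of 15 genes of a sulphur deficiency list, 8 were members. The other 7, tested in the check libraries, all had a negative log2 change (median -0.97) and none was called. SULTR4;2, a vacuolar sulphate exporter, came nearest at -0.99 ± 0.18 (edgeR adjusted p = 0.0518), and APR3 was at -1.61 ± 0.37 (adjusted p = 0.178). In letters A and B without a letter block, APR2 was the 1 of these 7 called, lower in C24/Col at -0.81 (edgeR adjusted p = 0.0217). With the block, edgeR called 2 of the 7 lower in C24/Ler, 4 in C24/Col and none in Col/Ler. APR2 and APR3, isoforms of the same reductase as APR1, were at -0.83 and -1.06 in C24/Col (edgeR adjusted p = 0.000598 and 0.00225) and at -0.47 and -0.63 in C24/Ler (0.0275 and 0.045). SULTR4;2 and GGCT2;1, which recycles glutathione, were at -0.52 and -0.46 in C24/Col (0.0489 and 0.0334).

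Methionine-derived glucosinolate synthesis gave the largest group of members, 15 of the 32 genes on a list written after the members were known. They cover the pathway from chain elongation (IPMI1, IPMI2, and BAT5, which moves its intermediates into plastids) through the core structure (CYP79F1, CYP79F2, GSTF11, SUR1, UGT74B1, UGT74C1, SOT17, SOT18) to side-chain changes (FMOGS-OX1, AOP2). APK1 and APK2 supply the activated sulphate that SOT17 and SOT18 use. The group's median ratio in letters A and B was 0.503 to 0.712, and in 4 of the 15 the hybrids were below both parents throughout. Both describe the libraries that chose the members. Of the 15, 14 had a negative log2 change in the check libraries (group median -0.41), 11 were at or under 0.8 times the parents (13 without Ler D and Ler E), and none was called.

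CYP79F1, the first enzyme of the core pathway, had 24.8 and 37.3 CPM in ColxLer and LerxCol of letter B, against 91.4 CPM in Col and 48.9 CPM in Ler, and 65.4 and 51.1 CPM in letter A, against 190 CPM in Col and 108 CPM in Ler. These hybrids were below both parents. In C24/Ler of letter A it had 144 and 107 CPM in C24xLer and LerxC24, against 358 CPM in C24 and 108 CPM in Ler, so that 1 hybrid lay between the parents. Its check values were 91.7 to 137 CPM in hybrids, against 158 to 197 CPM in C24 and 74 to 225 CPM in Ler. All hybrids were below all C24 libraries and among those of Ler, and the log2 change was -0.51 ± 0.26 (edgeR adjusted p = 0.853). Its ratio to the parents was 0.702 with all check libraries and 0.598 without Ler D and Ler E. CYP79F1 and CYP79F2 are neighbours of similar sequence, and counts could be split between them.

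AOP2, which makes alkenyl side chains, differed in sign between the 2 kinds of mid-parent. In the check libraries it had 185 and 109 CPM in C24xLer and 78.9 and 90.4 CPM in LerxC24, against 440, 340, 279 and 396 CPM in C24 D to G and 7.41, 4.86, 1.93 and 2.34 CPM in Ler D to G. The hybrids lay between the parents with no overlap. Their level was 0.63 times the arithmetic mean of the parents but stood above the mean of the logs by 1.52 ± 0.30 (edgeR adjusted p = 0.101). When both Ler D and Ler E were left out it was 2.01 (edgeR adjusted p = 0.000776), and with Ler D alone left out 1.74 (edgeR adjusted p = 0.0148). In Col/Ler the gene had 4.35 to 6.17 CPM in hybrids, against 13.6 and 24 CPM in Col and 1.74 and 2.1 CPM in Ler. AOP3, its neighbouring copy and no member, was called higher in the check libraries, at 2.74 ± 0.36 (edgeR adjusted p = 0.00742), and reads that match both copies are uncertain. None of the other 16 glucosinolate genes outside the members was called there. The regulators MYB28 and MYB29, which switch on this pathway, were at -0.11 ± 0.12 and -0.29 ± 0.19 (edgeR adjusted p = 1 and 0.953). In letters A and B without the block, edgeR called none of the 17 list genes outside the members lower and 1 higher in each family. With the letter as a block it called 5 lower in C24/Ler, 3 in C24/Col and 8 in Col/Ler, and again 1 higher in each. Of all genes, the blocked fit called 1.79%, 3.24% and 1.82% lower and 2.44%, 4.19% and 2.41% higher in these families.

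**Figure D3:**
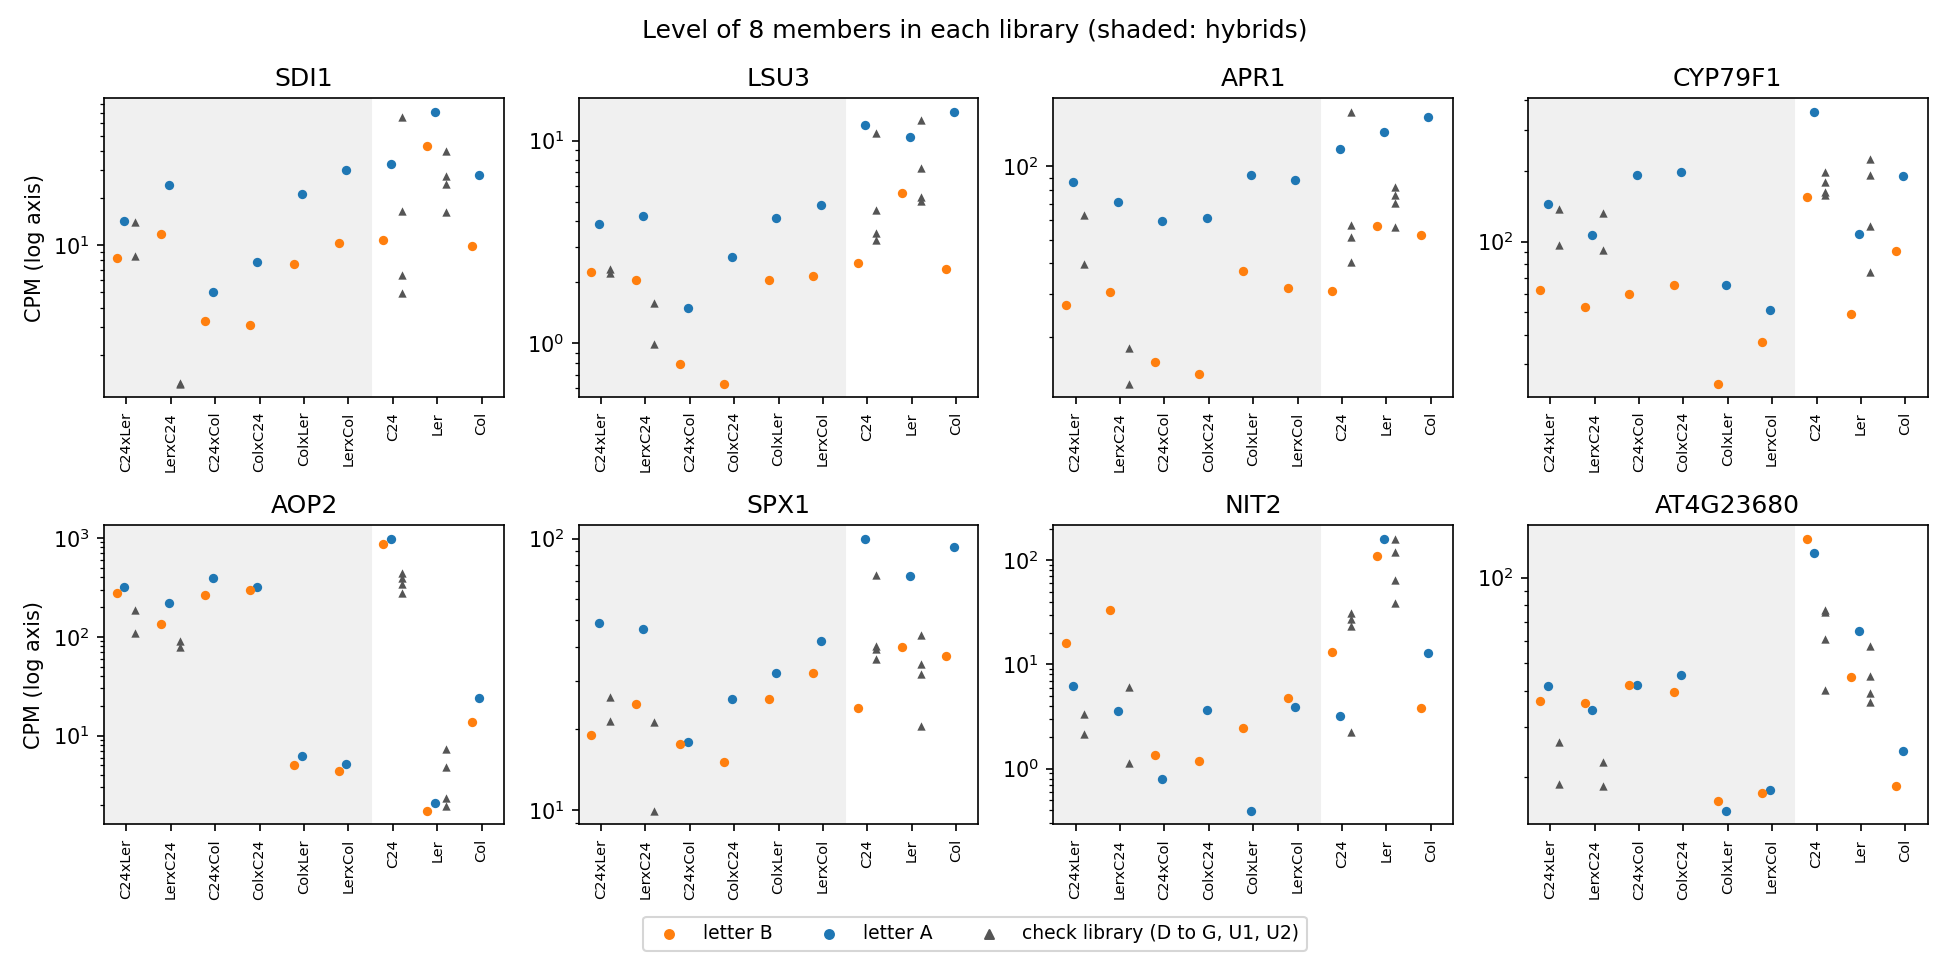
CPM (log axis) of SDI1, LSU3, APR1, CYP79F1, AOP2, SPX1, NIT2 and AT4G23680 in every library used, by genotype. The 6 hybrids are shaded and stand left of the 3 parents. Circles are letters B and A, triangles are check libraries. In LSU3 and AT4G23680 every hybrid triangle is below every parent triangle, and for AOP2 the hybrids of C24 and Ler lie between these parents.

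The phosphate group has 4 members, SPX1, PAP17, SRG3 and PHO1. Of 16 genes of a phosphate starvation list, 3 were members (SPX1, PAP17 and SRG3). SPX1, an inhibitor of the phosphate response, had 17.5 and 15.1 CPM in C24xCol and ColxC24 of letter B, against 23.9 CPM in C24 and 37.1 CPM in Col, and 17.8 and 25.8 CPM in letter A, against 100 CPM in C24 and 92.8 CPM in Col. These hybrids were below both parents, by a wider margin in letter A. Outside the selection, SPX1 had 21.4 and 26.1 CPM in C24xLer and 21.2 and 9.98 CPM in LerxC24, against 40.3, 73.3, 39.2 and 36.2 CPM in C24 and 34.5, 44.3, 31.7 and 20.4 CPM in Ler. Only Ler G fell within the range of the hybrids, and the log2 change was -1.03 ± 0.27 (edgeR adjusted p = 0.281). PAP17, an acid phosphatase, stood at 0.508 times its parents and SRG3, whose promoter is printed above, at 0.659 times (edgeR adjusted p = 0.539 and 0.846). PHO1, which loads phosphate into the xylem, was at 0.83 times its parents. The 13 other genes of the list had a median log2 change of -0.56 in the check libraries, 12 of 13 were negative and none was called. In letters A and B, PHT1;4 and PHO1;H1 were called lower in C24/Col, at -0.87 (edgeR adjusted p = 0.036) and -0.67 (0.00881), and no other gene of the list outside the members was called in a family, with or without the letter block.

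Detoxification and conjugation is represented by NIT2, UGT74E2, DOGT1, ChlAKR and GSTU8. NIT2, a nitrilase, had the lowest mean ratio of all members. It was high in Ler, at 109 CPM in letter B and 161 CPM in letter A. The hybrids with Ler had 2.45 to 33.3 CPM in letter B and 0.394 to 6.26 CPM in letter A. The check values were 3.36, 2.15, 6.09 and 1.13 CPM in the hybrids, against 2.22, 27.2, 30.9 and 23.5 CPM in C24 D to G and 39.1, 120, 64.5 and 159 CPM in Ler D to G. Only C24 D lay within the range of the hybrids. The log2 change was -3.82 ± 0.75 (edgeR adjusted p = 0.088), and without C24 D the adjusted p was 0.0159. No other library, when left out, brought NIT2 under the threshold. UGT74E2 and DOGT1, glucosyltransferases that act on an auxin precursor and on brassinosteroids, were likewise highest in Ler, at 22.6 and 79.9 CPM in letter B and 19.1 and 98.9 CPM in letter A. DOGT1 was near its parents in the check libraries, with a ratio of 0.892 and a log2 change of -0.12 ± 0.28 (edgeR adjusted p = 1).

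Of 24 genes of salicylic acid defence, 2 were members, PR1 and PNP-A. PR1, a secreted protein that marks this response, varied widely within genotypes. In letter B it had 2.13 and 20.1 CPM in C24xLer and LerxC24, against 32.1 CPM in C24 and 0.519 CPM in Ler, and in letter A 7.68 and 25.8 CPM, against 44.2 CPM in C24 and 144 CPM in Ler. Ler thus held the lowest of these 4 values in letter B and the highest in letter A. PR1 had, in the check libraries, 35, 28.4, 271 and 2.97 CPM in the hybrids, against 23.4, 277, 473 and 255 CPM in C24 and 568, 283, 416 and 221 CPM in Ler. The groups overlapped, and the log2 change was -2.23 ± 0.95 (edgeR adjusted p = 0.731). The 22 other genes of that list had a median log2 change of -0.21 in the check libraries and none was called. NSP5, a nitrile-specifier protein of glucosinolate breakdown, stood at 0.681 times its parents in the check libraries (0.559 without Ler D and Ler E), and ADC2, an arginine decarboxylase, at 0.81. PAP1, a regulator of anthocyanin synthesis, and GOLS2, a galactinol synthase of drought and cold responses, stood at 0.974 and 1.04 times their parents there.

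The membrane transport group holds 5 members placed by hand, and other transporters among the members (ABCC8, ABCC10, UMAMIT21 and UMAMIT32, with check ratios of 0.872, 0.628, 0.79 and 0.902) stand outside it. Of the 5, 4 were at or under 0.8 in the check libraries, and 3 without Ler D and Ler E, where AMT1;2 was at 0.809. AT3G05400, annotated as a protein of the major facilitator superfamily, had 5.27 and 4.54 CPM in C24xLer and 2.52 and 2.07 CPM in LerxC24, against 13.3, 14.4, 4.27 and 3.32 CPM in C24 and 11.2, 7.55, 5.8 and 8.68 CPM in Ler. Its hybrids were below all Ler libraries and overlapped C24 F and C24 G. CAX3, a vacuolar calcium exchanger, ABCG14, an exporter of cytokinins, and AMT1;2, an ammonium transporter, stood at 0.586, 0.677 and 0.794 times their parents. NIP6;1, a boron channel, stood at 0.889.

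AT1G73600, annotated as a methyltransferase, had the highest level of all members, with a mean of 591 CPM, and 3 loci at the same place (AT1G73602, LCR64 and AT1G73610) followed it. Its check values were 342 and 168 CPM in C24xLer and 69.4 and 79 CPM in LerxC24, against 295, 190, 59.1 and 82.6 CPM in C24 and 617, 220, 213 and 169 CPM in Ler. Its ratio to the parents was 0.713 with all libraries and 0.946 without Ler D and Ler E. In letter B of Col/Ler, for example, the 4 loci had ratios of 0.507 to 0.525, and the same reads could have been counted for more than 1 of them.

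The remaining 75 members were not placed in a role group, and 55 of them were at or under 0.8 in the check libraries (52 without Ler D and Ler E). TH8, a thioredoxin, had 3.37 and 3.67 CPM in C24xLer and 2.02 and 0.353 CPM in LerxC24, against 3.71, 18.5, 1.41 and 6.61 CPM in C24 and 14.9, 26.1, 16.6 and 20.5 CPM in Ler. Its hybrids lay below all Ler libraries. LerxC24 U2 was below every C24 library and the other hybrids lay among them. AT1G62420 had a mean ratio of 0.35 in letters A and B. Its check values were 0.824 to 1.09 CPM in the hybrids, against 1.56 to 3.27 CPM in C24 and 0.818 to 2.9 CPM in Ler. The hybrids lay below all C24 libraries and above Ler G, with a log2 change of -1.09 ± 0.32 (edgeR adjusted p = 0.373). SEP3, a MADS-box factor of floral organs, was 1 of 7 floral organ markers and the only member among them. In the check libraries it had 3.42, 1.39, 3.69 and 1.93 CPM in the hybrids, against 3.11 to 4.65 CPM in C24 and 5.48 to 10 CPM in Ler. The 7 markers summed to 10 to 14.2 CPM in hybrids and 10.7 to 29.1 CPM in parents of the libraries lettered A and B. AP1, another floral marker and no member, was called lower in the check libraries, at -1.58 ± 0.25 (edgeR adjusted p = 0.0219). The part of floral tissue in the other results was not tested. The floral repressors FLC and MAF1, also no members, were called higher, at 2.78 ± 0.16 and 2.60 ± 0.17 (edgeR adjusted p = 9.93e-06 and 2.73e-05). BGLU30, a beta-glucosidase induced in the dark, had 2.14, 3.02, 2.31 and 2.31 CPM in the hybrids, against 2.05, 11.8, 11.2 and 2.4 CPM in C24 and 16, 10.2, 10.2 and 48.3 CPM in Ler. It was highest in Ler, and C24 D and C24 G were as low as the hybrids. MS2, a methionine synthase with a mean of 195 CPM, stood at 0.832 times its parents. Members whose check ratio exceeded 1 were AT1G70000, AT2G27420, AT3G52360, FUT4, GOLS2 and USPL1, at 1.04 to 1.19 times their parents.

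No member was found in the lists of sugar transporters, ER body, jasmonate, cell division, flowering time, rapid stress, heat shock, metal supply or nitrate genes. Anthocyanin, senescence and cold lists gave 1 member each (PAP1, BGLU30 and GOLS2). Of 18 anthocyanin genes outside the members, 17 had a negative log2 change in the check libraries (median -0.58) and none was called. In letters A and B with the letter as a block, edgeR called 3 of them lower in C24/Ler, 11 in C24/Col and none in Col/Ler. Of all genes, that fit called 1.79%, 3.24% and 1.82% lower. In the check libraries all 10 ER body genes were negative (median -0.30). Of the non-member cold and rapid stress genes, 2 of 15 and 0 of 12 were negative there (medians 0.42 and 0.94).

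Letter B libraries held less of the members' transcripts than letter A libraries in every genotype, hybrid or parent. With genotype as a block, edgeR called 94 of 125 members lower in letter B than in letter A and none higher, against 15.5% of the 29777 genes called lower and 14.4% called higher. The median log2 difference was -0.54 over the members and -0.00 over all genes, and it was negative for 118 members. The rule compared hybrids with parents within each letter and did not use the difference between letters. The comparison is nonetheless made on the 18 libraries that chose the members, and no other libraries carry these letters, so it describes those libraries and supports nothing about the selection. All 15 glucosinolate members and all 4 loci at AT1G73600 were called lower, as were 8 of 10 sulphur, 3 of 4 phosphate, 4 of 5 transport, 5 of 7 defence and stress, and 2 of 5 detoxification members. APR1 had 14 to 37.1 CPM in the hybrids of letter B, against 59.4 to 92.2 CPM in those of letter A, and it fell by 1.62 (edgeR adjusted p = 1.35e-06). IPMI1, a subunit of the isomerase of chain elongation, had 11.6 to 56.1 CPM in the 9 genotypes of letter B and 19.8 to 123 CPM in those of letter A, and fell by 1.01 ± 0.05 (edgeR adjusted p = 6.06e-08). PAP1 fell by 1.51 ± 0.08 (edgeR adjusted p = 8.55e-08), AT3G56080 by 1.15 ± 0.06 (4.75e-08), BAT5 by 0.90 (6.74e-08) and DJ1F by 0.79 (1.5e-07). NIT2 and BGLU30 were at 0.64 and 1.12 without passing the threshold (edgeR adjusted p = 0.479 and 0.138). What the letters differ in, such as growth, harvest or sequencing, is not stated in the labels. In the non-member genes of the glucosinolate list, 14 of 17 were also called lower in letter B.

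**Figure D4:**
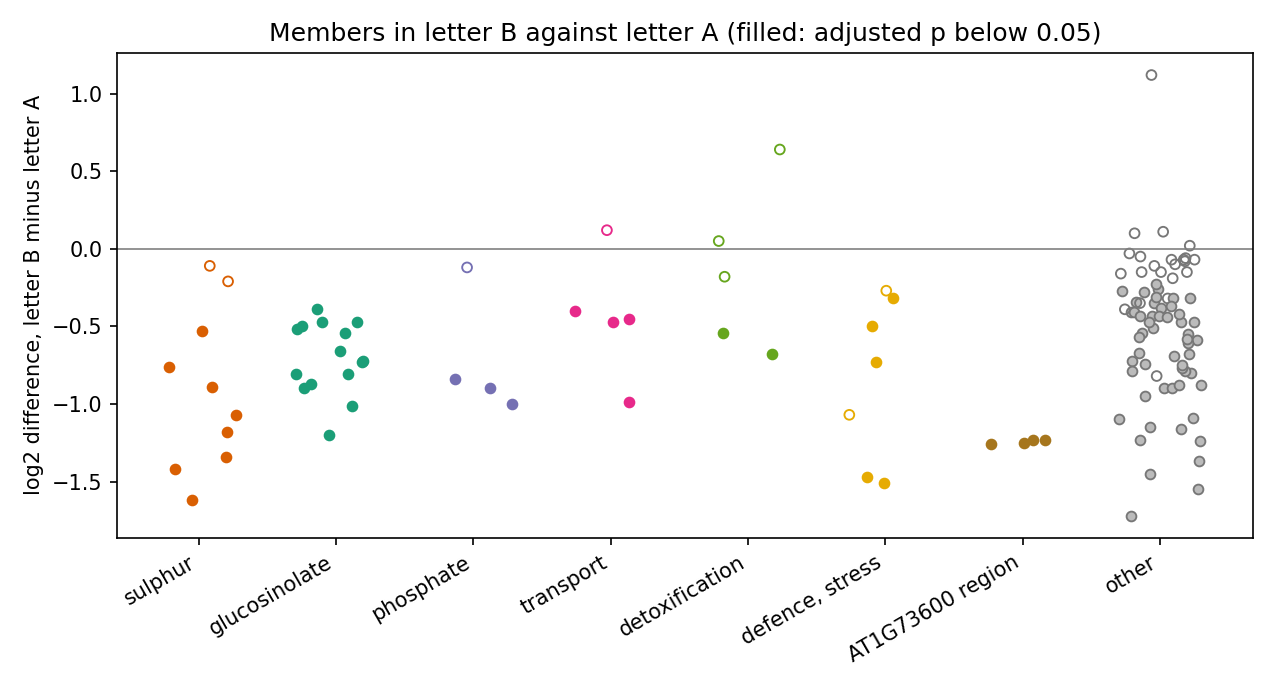
Log2 difference of letter B minus letter A, with genotype as a block, for each member by role. Filled points passed an adjusted p of 0.05. All 15 glucosinolate members are filled and below 0, and no filled point is above 0.

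**Figure D5:**
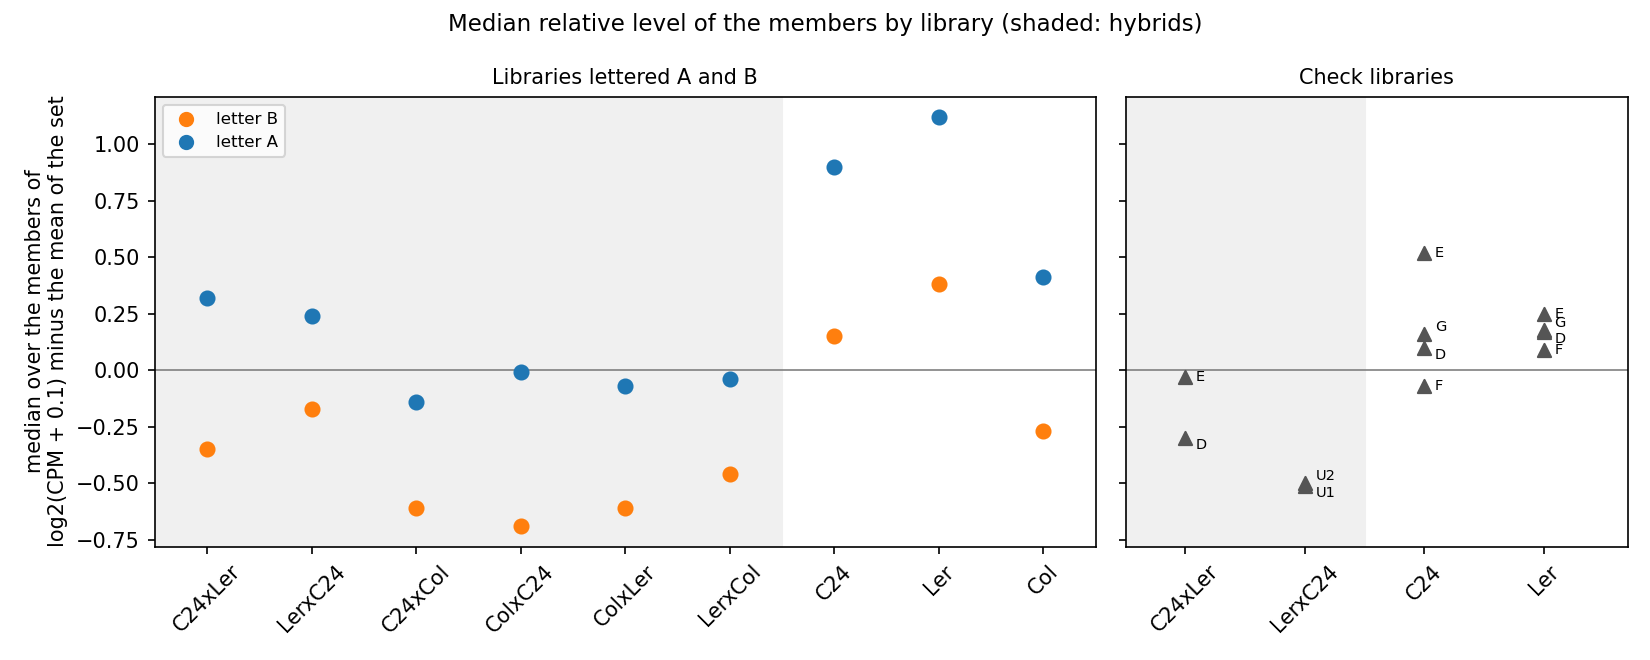
Median over the 125 members of log2(CPM + 0.1) minus the mean of the set, by library, for letters B and A (left) and the check libraries (right), with hybrids shaded. Within each letter every hybrid stands below C24 and Ler, and in the check libraries the LerxC24 libraries are lowest at -0.51 and -0.50.

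The size of the letter difference can be set beside that of the hybrid difference in each library. As a median over the members, on a log2 scale relative to the mean of the set, ColxC24 stood at -0.69 in letter B and -0.01 in letter A, Ler at 0.38 in letter B and 1.12 in letter A, and Col at -0.27 in letter B and 0.41 in letter A. All genes stood within 0.01 of 0 in each of these libraries. Col in letter B was thus lower than all 6 hybrids in letter A. In the check libraries the hybrids stood at -0.51 to -0.03 and the parents at -0.07 to 0.52, C24 F being the parent library within the range of the hybrids.

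The direction of the cross was tested as well. In letters A and B no gene was called by edgeR between C24xLer and LerxC24, between C24xCol and ColxC24, or between ColxLer and LerxCol (0% each), with 2 libraries per direction. At an unadjusted p below 0.05, 4, 2 and 8 members differed in the 3 families (3.2%, 1.6% and 6.4%), near the 3.08%, 2.4% and 3.56% of all genes, and DESeq2 called 0, 0 and 1. The members' median log2 differences were -0.00, -0.06 and -0.09. In the check libraries no gene was called between C24xLer and LerxC24 either (0%). Of the members, 20 (16%) had an unadjusted p below 0.05, against 9.5% of all genes, and 94 were higher in C24xLer, against 50.7% of genes. Their median was 0.36, against 0.01 for all genes, and DESeq2 called 1. All 10 sulphur members were higher in C24xLer there, with a median of 1.43. C24xLer holds letters D and E. Those of LerxC24 are in conflict, D and E by the count headers and F and G by the titles. While that is unsettled, the direction of the cross and the letter cannot be told apart in these libraries. Shares of all genes are not given for the DESeq2 counts, and nothing is read from them.

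Between C24 and Ler, the share of members called in the fit without a block was near that of all genes (9.6% and 8.43%). At an unadjusted edgeR p below 0.05 the shares were 30.4% of members and 21.6% of genes. In the check libraries, 4 members were called lower in C24 than in Ler, against 4.62% of genes, and 8 higher, against 3.82%. AOP2 was higher in C24 by 6.45 ± 0.46 (edgeR adjusted p = 9.2e-06) and AT3G30875 by 2.08 ± 0.42 (0.0108), followed by AT5G09570, NAC001, AT2G32487, GSTF11, IPMI1 and SCPL7 at 0.66 to 1.48. UGT74E2 was lower in C24, at -1.51 ± 0.24 (edgeR adjusted p = 0.00261), as were PYD4, GOX3 and AT3G25290 at -2.02 to -1.12. Without Ler D and Ler E, 5 members were lower and 13 higher in C24, against 7.07% of genes lower and 7.28% higher. With the letter as a block and without LerxC24, 17 were lower and 20 higher, against 10.1% of genes lower and 10.2% higher. Without 1 library the count was 7 (C24 D), 4 (C24 G), 5 (Ler F) or 3 (Ler G), and 8 to 16 without any other. The share of all genes is not given for these fits, so nothing is read from their counts.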

How the data were processed

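Raw whole-number counts for 34 samples were deposited by the authors in 1 table, with no normalization. Per the submitters' processing notes, FastQC and the build TAIR10 were used. Aligner, counter, strand and read-pair handling are not given there, so counts of overlapping genes (26 members, among them SDI2, APR1, APS3, SERAT3;2, PAP17, SRG3, GSTF11, SOT18, UGT74C1, SPDS3, SCPL7, ABCG14, NIP6;1 and AT3G26440) and of near-identical copies are uncertain. Gene names, overlaps and the promoter come from NCBI's TAIR10.1, and 32565 of 33321 loci matched.

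Tests used edgeR 4.0.16 (R 4.3.3): quasi-likelihood, TMM, filterByExpr by genotype, Benjamini-Hochberg adjustment over all genes tested, calls at an adjusted p below 0.05. The log2 changes are given ± SE. Hybrids of both directions were averaged and set against the parents. The scripts were tested on simulated data. DESeq2 1.42.0, other size factors, no filter on low counts and leaving out each library were alternatives. Levels lettered alike deviated together (r = 0.294 to 0.77 over 36 pairs of genotypes for letters B and A, 0.441 to 0.567 over 4 letters for C24 and Ler), so letters pair the samples. Blocked counts of called genes and members stand beside the counts without a block. Values of single genes in the check libraries come from the fit without a block unless stated.

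Members, lists and role groups were chosen with earlier results of these data known. Named are the 12 members of lowest mean ratio, the 5 of highest level, members on the lists, members called in a comparison (up to 15 in the check libraries, 5 elsewhere), 3 on each side of the limit, and up to 4 called genes of a list outside the members. Others named in or beside the role groups, and those with no overlap or a check ratio above 1, were chosen after their values were seen.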

Additional observations from a re-analysis of the deposited data

Results flagged for a closer look

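Among 82 groups of 4 check libraries (41 named members in C24 and in Ler), 9 had 1 library far from the other 3. About 1 group in 20 would do so by chance if the values were independent and normally distributed, which was not tested. The groups share libraries, so no excess is read from the count. C24 E stood above the other C24 libraries in 4 members, with 168 CPM of APR1 against 40.3 to 57.2 CPM, 73.3 CPM of SPX1 against 36.2 to 40.3 CPM, 10.9 CPM of LSU3 against 3.25 to 4.53 CPM, and 285 CPM of MS2 against 159 to 176 CPM. Ler D stood above the other Ler libraries with 617 CPM of AT1G73600 against 169 to 220 CPM and 593 CPM of AT1G73602 against 165 to 210 CPM, loci that could share reads, and with 28.3 CPM of PNP-A against 3.41 to 7.56 CPM. C24 F had 10.1 CPM of FUT4, against 3.66 to 4.55 CPM in the other C24 libraries. Ler G had 48.3 CPM of BGLU30, against 10.2 to 16 CPM in the other Ler libraries.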

How the results depend on the processing

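The rule gave 69 genes at a limit of 0.75 and 242 at 0.85, and other settings gave 95 to 144. In the check libraries, edgeR's 15 genes lower, 71 higher and 3 members lower became 169 lower, 176 higher and 29 members lower with DESeq2, 519, 350 and 24 with parents of letters D and E alone, 1, 19 and 0 with the libraries lettered C added, 9, 47 and 1 with the replicate block without LerxC24, and 1, 39 and 0 without both block and LerxC24 (added after seeing the data). Without Ler D and Ler E, 29 genes were lower and 137 higher. RLE size factors and no filter kept these counts within 1.5 times. The members' median log2 change was -0.25 with letter C and otherwise -0.60 to -0.31. Leaving out 1 library gave 2 to 16 genes lower, 45 to 132 higher, 0 to 4 members lower and medians of -0.57 to -0.44.

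Members called between C24 and Ler numbered 12, against 20 with DESeq2, 5 with parents D and E, 1 with letter C, 37 with the block, and 3 to 16 leaving out 1 library. Between C24xLer and LerxC24 of the check libraries, DESeq2 called 1 member and the fit with parents D and E 4, against 0. In Col/Ler reciprocals DESeq2 called 1 member, against 0, and leaving out 1 library called 0 in all 3 families. Among these comparisons, shares of all genes are given above for the main fits and for the block between C24 and Ler. The other counts have no such share, and nothing is read from them. The letter comparison called 93 to 95 members lower under every setting run. No replicate block is possible there, since the letter is what is compared. In the reciprocals of letters A and B the block called 0 members, as without it. Hybrids against the mid-parent in letters A and B were also fitted with the replicate block (added after seeing the data). In C24/Ler that fit gave 532 genes lower, 727 higher and 88 members lower, against 62, 243 and 12 without the block. In C24/Col it gave 966, 1248 and 92, against 68, 301 and 8. In Col/Ler it gave 541, 717 and 96, against 78, 256 and 17. The members were chosen on these libraries, so their counts are a description only.

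Changes of sign among the 41 named members in the check libraries were all in values that missed the threshold. With letter C, UGT74E2 was at 0.35, PAP1 at 0.59, GRP9 at 1.84 and MS2 at 0.05. GOLS2 was at -0.12 with parents D and E and -0.15 with the block, PAP1 at 0.21 with the block, and AT3G30875 at 0.33 without Ler D and Ler E. Without LerxC24 and block, PAP1 was at 0.33, AT1G73600 at 0.23, AT1G73602 at 0.21 and MS2 at 0.13. Leaving out 1 library gave both signs for PAP1 (-0.24 to 0.06), GOLS2 (-0.18 to 0.27), FUT4 (-0.67 to 0.72) and DOGT1 (-0.60 to 0.17). The causes were not tested.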
